A study of Mus musculus with 2 samples.

Results

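The genes of the major histocompatibility complex (MHC) and of antigen presentation were followed in liver mRNA from 1 control library and 1 iFIRKO library. A row of the deposited tables was a member when its symbol began with H2-, the prefix of the mouse MHC, or was *Cd74*, *B2m*, *Tap1*, *Tap2*, *Tapbp*, *Ciita*, *Nlrc5*, *Psmb8*, *Psmb9* or *Psmb10*, and 4 symbols with -ps were left out. This gave 51 members of 53342 rows. By symbol, 29 were placed in class I, 10 in class II, 6 in peptide supply, 2 as regulators and 4 in neither class. Of the 51 members, 46 lie on chromosome 17.

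iFIRKO mice carry Adipoq-CreERT2, a tamoxifen-inducible Cre recombinase driven in adipocytes by the adiponectin promoter, together with Insr flox/flox, so that the insulin receptor gene is deleted in adipocytes and not by design in the liver. The control is labelled WT by the submitters, whereas the methods of the study describe control mice as IR flox/flox. Both groups were male, were 7 weeks old, received intraperitoneal tamoxifen at 100 mg/kg on 5 days, and were analysed 3 days after the last dose. The sources used here do not say whether a library came from 1 mouse or from a pool, nor do they give the H2 haplotype of either group. With 1 library per group no difference has a replicate check, no p-value was computed, and every difference compares these 2 libraries and not the genotypes.

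MHC class I molecules are a polymorphic heavy chain paired with β2-microglobulin. They sit on nearly all nucleated cells and display peptides that the proteasome cuts in the cytosol and the TAP transporter carries into the endoplasmic reticulum. Class II molecules are α and β chains that load peptides in endosomes, and are made mainly by B cells, dendritic cells and macrophages. In the liver, Kupffer cells, dendritic cells and sinusoidal endothelium present antigen, and hepatocytes carry class I and secrete the class I molecule encoded by *H2-Q10*.

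The values are normalized reads, the authors' scaled read counts, returned here from the log2 scale. The estimated depth was 42276584 reads for control and 41304952 for iFIRKO, where 2 reads make a pair. A fold change divides the value in iFIRKO by that in control, after 4.18 normalized reads were added to both, which stands for 0.1 CPM (counts scaled to a common library size). Genes were tested when 1 or both libraries reached 41.8 normalized reads, which stands for 1 CPM, and a gene was called lower or higher past a fold of 1.5, the limit in the study's methods (0.58 on the log2 scale). Of 13400 genes tested, 7.28% were called lower and 4.46% were called higher, and their median log2 fold change was 0.01. Among the 10145 genes with at least 209 normalized reads, 4.34% were called lower. Each interval is a 95% exact Clopper-Pearson interval of the plain ratio and covers counting error only. For *Insr* the control value was 4246 normalized reads and the iFIRKO value 3692 (log2 fold change -0.20).

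Of the 51 members, 32 were tested and the other 19 were below the minimum. Of the 32, 15 were called lower, against 7.28% of all genes tested. None was called higher, against 4.46%, and 17 lay within the limits. Log2 fold changes were below 0 for 30 of the 32, and the interval lay below 0 for 29. The median log2 fold change was -0.78 for 8 tested class II genes, -0.49 for 14 tested class I genes and -0.38 for 6 peptide supply genes. Of the 27 members with at least 209 normalized reads, 11 were called lower, against 4.34% of all such genes. The plot of levels by member shows the control value above the iFIRKO value for 30 of 32 members.

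**Figure D1:**
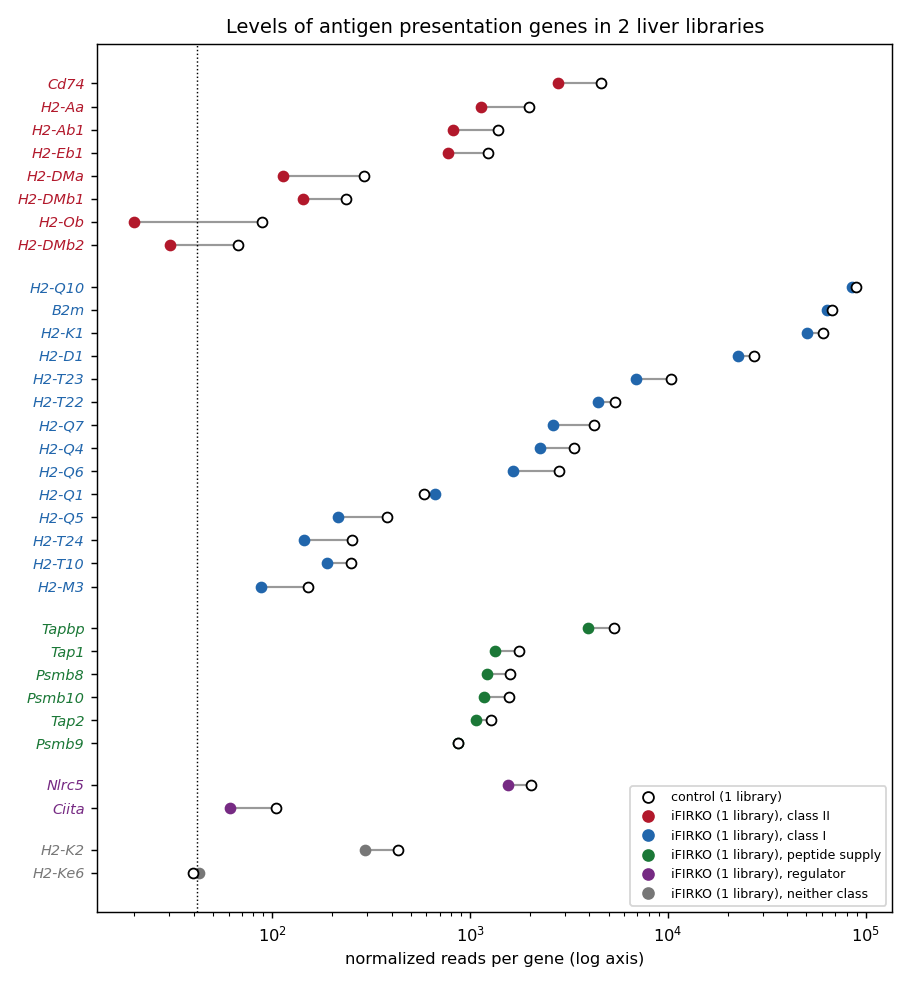
Normalized reads per gene (horizontal log axis) of the 32 tested members, with the control library as an open circle and the iFIRKO library as a filled circle coloured by family; the dotted line marks the minimum of 41.8 normalized reads. The filled circle lies to the left of the open one for every member but *H2-Q1* and *H2-Ke6*, and for *Psmb9* the circles coincide.

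Class II genes were the family that differed most between the libraries. All 8 tested class II genes were called lower in iFIRKO, against 7.28% of all genes, with log2 fold changes from -1.94 to -0.68. Summed over the 10 class II members, the control library gave 9863 normalized reads and the iFIRKO library 5809.9, which is 58.9% of control and a log2 ratio of -0.76 (interval -0.83 to -0.70). In bulk liver, fewer cells of a type and less RNA per cell cannot be told apart.

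*H2-Aa* and *H2-Ab1* encode the α and β chains of the class II molecule I-A. *H2-Aa* (chromosome 17 of GRCm38, 34282744 to 34287823) gave 1980.2 normalized reads in control against 1127 in iFIRKO (log2 fold change -0.81, interval -0.97 to -0.66). *H2-Ab1* (34257689 to 34269419) had 1385 and 819, a log2 fold change of -0.75 (interval -0.94 to -0.58). The plain log2 ratios of the 2 chains differed by -0.06, with an interval from -0.29 to 0.18. *H2-Eb1* (34305867 to 34316674), the β chain of the class II molecule I-E, had 1228 and 767.5 normalized reads, a log2 fold change of -0.68 (interval -0.87 to -0.49).

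*Cd74* encodes the invariant chain, which fills the class II groove until endosomal loading. It gave 4572 normalized reads in control against 2780.1 in iFIRKO (log2 fold change -0.72, interval -0.81 to -0.62). Per kb of exon it was the most abundant class II member, at 2723 normalized reads in control against 632 for *H2-Eb1*, 539 for *H2-Ab1* and 521 for *H2-Aa*. The log2 fold changes of these 4 genes ran from -0.81 to -0.68, and their sum in iFIRKO was 59.9% of that in control.

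H2-DM removes the invariant chain remnant from class II molecules, and H2-O inhibits H2-DM. *H2-DMa* (34119541 to 34139101), the α chain of H2-DM, gave 291 normalized reads in control against 113 in iFIRKO (log2 fold change -1.34, interval -1.83 to -0.91). The β chain gene *H2-DMb1* (34153072 to 34160230) had 236 and 143, a log2 fold change of -0.71 (interval -1.17 to -0.29). The plain log2 ratio of *H2-DMa* was lower than that of *H2-DMb1* by 0.64 on that scale (difference -0.64, normal-approximation interval -1.26 to -0.03). *H2-DMa* overlaps *Brd2* on the other strand, and no source says that strand was used in counting, so reads of the pair could have gone to either gene.

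The second β chain gene, *H2-DMb2*, gave 66.9 normalized reads in control against 30.4 in iFIRKO, or 34 and 15 read pairs, with a log2 fold change of -1.04 (interval -2.14 to -0.25). Of the 50-base stretches in its transcripts, 21.2% also occur in *H2-DMb1*, so the separate values of these genes are uncertain. *H2-Ob* (34238903 to 34254414), the β chain of H2-O, gave 88.4 normalized reads in control against 19.9 in iFIRKO, from 44 and 10 read pairs. Its log2 fold change was -1.94, with the widest interval among the members called (-3.27 to -1.11). With 41.8 normalized reads added to each value it was -1.08, beside -1.11 for *H2-DMa*, so which of them differed most depends on the amount added. Its partner *H2-Oa* had 10.9 and 10.1 normalized reads, below the minimum, and *H2-Eb2* had 3.97 normalized reads in control and was listed at 0 in iFIRKO.

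Class II promoters are known for a shared X box and Y box, which bind the RFX complex and NF-Y and recruit CIITA. The RefSeq table of GRCm38.p6 gave a promoter window for 37 of the 51 members, of which the 250 bases before the start site were searched on both strands. The letters CTNGNAAC followed by ATTGG, with at most 45 bases between them, stood for the X and Y boxes. These letters were chosen after the sequences had been read, and they do not overlap each other. The pair was found in 0.511% of the 27025 genes with a window and in 4 of the 8 class II genes with one. The class II genes *Cd74* and *H2-Ab1* had no window, so they were not searched, and neither were *Ciita* and *Nlrc5*. CTNGNAAC alone was found in 12.5% of all windows, and ATTGG alone in 37.5%. The 4 stretches are shown because these genes, each called lower in iFIRKO, share this order of letters, with CTNGNAAC and ATTGG in capitals, 5′ to 3′ on the strand of the gene. They lie at chr17:34287862-34287912 on the minus strand for *H2-Aa*, and on the plus strand at chr17:34305768-34305817 for *H2-Eb1*, chr17:34153089-34153139 for *H2-DMb1* and chr17:34238810-34238857 for *H2-Ob*.
H2-Aa: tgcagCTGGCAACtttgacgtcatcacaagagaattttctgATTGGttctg
H2-Eb1: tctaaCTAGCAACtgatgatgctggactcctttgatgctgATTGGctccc
H2-DMb1: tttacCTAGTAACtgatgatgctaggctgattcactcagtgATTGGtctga
H2-Ob: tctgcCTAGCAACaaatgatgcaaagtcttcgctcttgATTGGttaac

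The genes that carry this pair had log2 fold changes of -0.81 (*H2-Aa*), -0.68 (*H2-Eb1*), -0.71 (*H2-DMb1*) and -1.94 (*H2-Ob*). The windows of *H2-DMa* and *H2-DMb2* hold no such pair, and these genes were also called lower. No tested class I or peptide supply gene with a window held the pair. Among all 23 class I genes with a window, tested or not, 1 held it, *H2-M2*, which was below the minimum. Since the letters were chosen after the sequences had been read, this contrast is no test of a difference between the classes. *Ciita*, the master regulator of class II transcription, is itself made in few cell types. It gave 104 normalized reads in control against 61.0 in iFIRKO, or 52 and 30 read pairs, a log2 fold change of -0.73 (interval -1.47 to -0.10). Its call was lost with 41.8 normalized reads added to each value, where the log2 fold change was -0.50. It overlaps *Dexi* on the other strand.

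**Figure D2:**
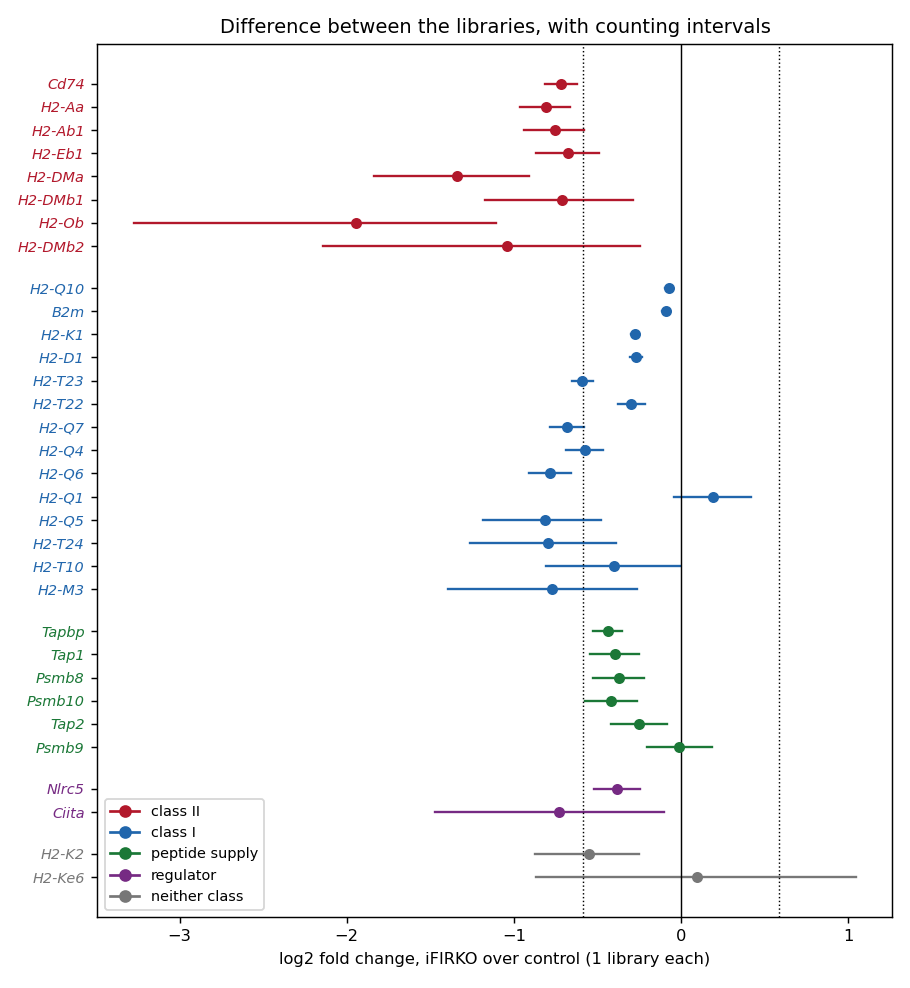
Log2 fold change of iFIRKO over control for the 32 tested members (points, with the pseudocount) and 95% counting intervals of the plain ratio (lines), coloured by family; dotted lines mark a fold of 1.5 in each direction and the solid line no difference. All 8 class II points lie left of the lower dotted line, the class I points range from -0.82 to 0.19, and the 6 peptide supply points lie between -0.44 and -0.01.

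Class I genes differed less between the libraries, and not all by the same amount. Of 14 tested class I genes, 6 were called lower, against 7.28% of all genes, 8 lay within the limits and none was called higher, against 4.46%. Summed over the 29 class I members the libraries had 272384 and 240041 normalized reads, a log2 ratio of -0.18 (interval -0.19 to -0.17). The class II sum was lower than the class I sum by a further 0.58 on the log2 scale (difference -0.58, interval -0.65 to -0.51). *H2-Q10* and *B2m* held much of the class I sum. Without them the class I log2 ratio was -0.33, and the difference of class II from it was -0.43 (interval -0.50 to -0.36).

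The 2 classical class I heavy chain genes differed between the libraries by nearly the same ratio. *H2-K1* (chromosome 17, 33996017 to 34000347) gave 60673 normalized reads in control against 50178 in iFIRKO (log2 fold change -0.27, interval -0.30 to -0.25). *H2-D1* (35262730 to 35267499) had 27122 and 22511, also a log2 fold change of -0.27 (interval -0.31 to -0.23). The difference between their plain log2 ratios was 0.01, with an interval from -0.04 to 0.05.

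*H2-Q10* (35470089 to 35474563), the secreted class I gene of hepatocytes, gave 89374 normalized reads in control against 84919 in iFIRKO (log2 fold change -0.07, interval -0.09 to -0.05). *B2m* on chromosome 2 (122147686 to 122153083), which encodes the light chain, had 67440.4 and 63332, a log2 fold change of -0.09 (interval -0.11 to -0.07). The plain log2 ratios of these 2 genes differed by -0.02, with an interval that includes 0 (-0.05 to 0.01). *H2-K1* was lower than *H2-Q10* by 0.20 on the log2 scale (difference -0.20, interval -0.23 to -0.17) and differed from *B2m* by -0.18 (interval -0.22 to -0.15). Per kb of exon, control levels were 78419 normalized reads for *B2m*, 20651 for *H2-K1*, 20555 for *H2-Q10* and 10516 for *H2-D1*.

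The 6 class I genes called lower were all nonclassical, but so were most of the class I genes tested. Of the 14 tested, 11 were H2-Q, H2-T or H2-M genes, and 5 of these 11 lay within the limits. *H2-T23* (36029773 to 36032855), which encodes the heavy chain of Qa-1, a ligand of inhibitory NK cell receptors, gave 10317 normalized reads in control against 6850.2 in iFIRKO (log2 fold change -0.59, interval -0.65 to -0.53), just past the limit. *H2-Q6* had 2815 and 1636 (log2 fold change -0.78, interval -0.91 to -0.66), and *H2-Q7* had 4198 and 2617 (log2 fold change -0.68, interval -0.78 to -0.58). *H2-Q4*, with 3346 and 2244, had a log2 fold change of -0.58 and lay just inside the limit. *H2-Q7* belongs to the genes of the Qa-2 antigen, and its plain log2 ratio was lower than that of *H2-Q10* by 0.61 (difference -0.61, interval -0.71 to -0.51), although both lie in the H2-Q cluster.

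The other 3 genes called lower had fewer reads. *H2-Q5*, annotated as a polymorphic pseudogene, gave 380.4 normalized reads in control against 214 in iFIRKO (log2 fold change -0.82, interval -1.19 to -0.48). *H2-T24* had 253 and 144 (log2 fold change -0.80, interval -1.26 to -0.39). *H2-M3*, whose product presents N-formylated peptides, had 152 and 87.3 (log2 fold change -0.77, interval -1.40 to -0.27).

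Of the remaining tested class I genes, *H2-T22*, whose product is seen by some γδ T cells, was at 5407 and 4399 normalized reads, with a log2 fold change of -0.30 (interval -0.38 to -0.22). Its close relative *H2-T10*, with which it shares 31.2% of its 50-base stretches, had 250.5 and 189 and a log2 fold change of -0.40. *H2-T23* was lower than *H2-T22* by 0.29 on the log2 scale (difference -0.29, interval -0.40 to -0.19), while *H2-T10* and *H2-T22* differed by -0.11 with an interval from -0.50 to 0.28. *H2-Q1* was the 1 class I gene with a higher value in iFIRKO, at 583 in control against 666 normalized reads (log2 fold change 0.19, interval -0.04 to 0.42).

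Of the 29 class I members, 15 were below the minimum. *H2-Q2* had 34.6 and 29.8 normalized reads and *H2-Bl* had 29.4 and 23.2. The others were *H2-M5*, with 5.96 in control and listed at 0 in iFIRKO, *H2-M2*, listed at 0 in control with 2.01 in iFIRKO, and 11 genes listed at 0 in both libraries: *H2-Q3*, *H2-T3*, *H2-M1*, *H2-M9*, *H2-M11* and *H2-M10.1* to *H2-M10.6*. A row is listed at 0 when its scaled count was 1 or less.

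Class I heavy chain genes are near copies of each other. For 10 of the 14 tested class I genes, more than 10% of the 50-base stretches in their GENCODE M21 transcripts also occur in another gene, with 36.4% for *H2-Q5*, 34.5% for *H2-T22*, 26.4% for *H2-Q7* and 9.6% for *H2-K1*. For *B2m* and 3 of the 4 most abundant class II members, *Cd74*, *H2-Ab1* and *H2-Eb1*, the share was 0, and for *H2-Aa* it was 0.49%. How reads that match several genes were counted is not given in the sources used here, so the separate values of genes with a large shared part, *H2-DMb1* and *H2-DMb2* included, are uncertain. In addition, 18 of the 32 tested members overlap another annotated gene, 16 of them a gene on the other strand, such as *A930015D03Rik* for *H2-T22*, *H2-T23* and *H2-T24*.

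**Figure D3:**
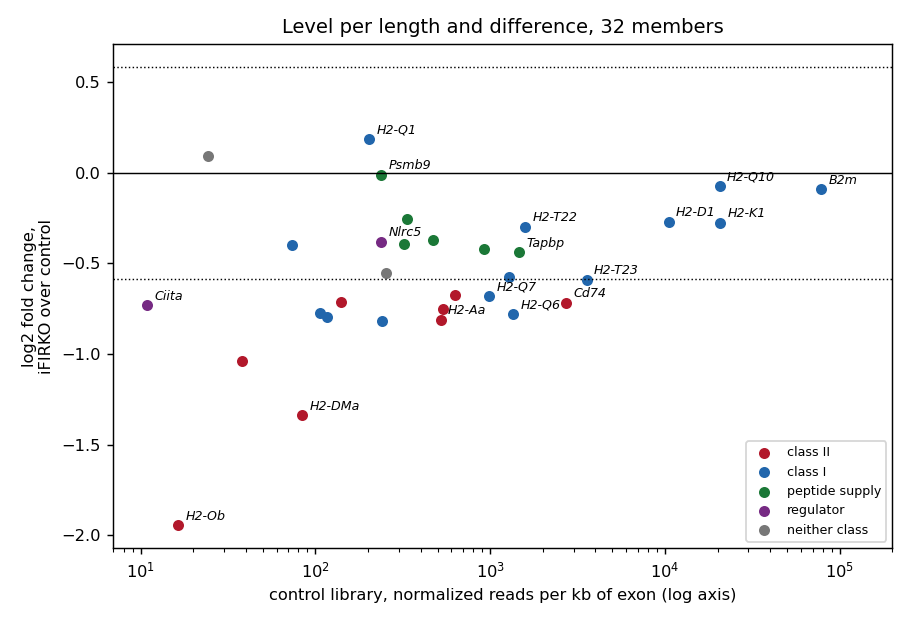
Log2 fold change of iFIRKO over control (vertical) against the control level in normalized reads per kb of exon (horizontal log axis) for the 32 tested members, 1 library per group, coloured by family; dotted lines mark a fold of 1.5. The 4 most abundant class I genes lie between -0.27 and -0.07, whereas *Cd74* at 2723 normalized reads per kb lies at -0.72.

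Upstream of class I genes an NF-κB site and an interferon response element stand side by side in what is known as enhancer A and its neighbour. The letters GGGGATTCC and TTTCACTTC, chosen after the sequences had been read, were searched in the same 250 bases on both strands. GGGGATTCC was found in 0.255% of all genes with a window and in 4 of the 10 tested class I genes with one, *H2-K1*, *H2-D1*, *H2-Q6* and *H2-Q7*. TTTCACTTC was found in 0.477% of all genes and in 7 of those 10. No class II or peptide supply gene with a window held either. Stretches of 44 bases are shown for the 2 classical genes, for *H2-Q7*, which was called lower, and for *H2-Q10*, which hardly differed, with any match in capitals and 5′ to 3′ on the strand of the gene. They lie at chr17:34000424-34000467 on the minus strand for *H2-K1* and on the plus strand at chr17:35262914-35262957 for *H2-D1*, chr17:35439012-35439055 for *H2-Q7* and chr17:35469904-35469947 for *H2-Q10*.
H2-K1: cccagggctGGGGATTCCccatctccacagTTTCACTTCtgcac
H2-D1: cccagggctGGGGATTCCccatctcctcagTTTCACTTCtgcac
H2-Q7: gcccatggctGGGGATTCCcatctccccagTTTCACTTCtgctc
H2-Q10: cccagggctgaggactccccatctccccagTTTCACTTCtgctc

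The stretch of *H2-Q10* holds TTTCACTTC but not GGGGATTCC. The 4 genes with both matches had log2 fold changes of -0.27 (*H2-K1*), -0.27 (*H2-D1*), -0.78 (*H2-Q6*) and -0.68 (*H2-Q7*), so genes with the same letters did not differ between the libraries by the same amount. *Nlrc5*, the class I counterpart of *Ciita*, gave 2027 normalized reads in control against 1556 in iFIRKO (log2 fold change -0.38, interval -0.52 to -0.24), within the limits.

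The 6 peptide supply genes were all below 0 in log2 fold change, and none of them passed the limit. *Tap1* and *Tap2* encode the subunits of the peptide transporter. *Tap1* gave 1755 normalized reads in control against 1334 in iFIRKO (log2 fold change -0.39, interval -0.54 to -0.25), and *Tap2* had 1268 and 1064 (log2 fold change -0.25, interval -0.42 to -0.08). *Tapbp*, which encodes tapasin, the bridge between the transporter and class I, had 5306 and 3915 (log2 fold change -0.44, interval -0.52 to -0.35).

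*Psmb8*, *Psmb9* and *Psmb10* encode the catalytic subunits of the immunoproteasome, which replace those encoded by *Psmb5*, *Psmb6* and *Psmb7*. *Psmb8* gave 1582 normalized reads in control against 1221 in iFIRKO (log2 fold change -0.37, interval -0.53 to -0.22). *Psmb10* on chromosome 8 had 1575 and 1176 (log2 fold change -0.42, interval -0.58 to -0.26). *Psmb9* had 869 and 863, and its log2 fold change of -0.01 could not be told from no difference at this depth (interval -0.20 to 0.19). *Psmb9* and *Tap1* overlap on opposite strands.

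The constitutive subunits all lay within the limits, with log2 fold changes above 0. *Psmb5* had 2658 and 3018 normalized reads (log2 fold change 0.18, interval 0.08 to 0.29) and *Psmb6* had 3311 and 3556 (0.10, interval 0.01 to 0.20). *Psmb7* had 3849 and 4085 (0.09), with an interval that includes 0 (-0.0047 to 0.18). The plain log2 ratio of *Psmb8* was lower than that of *Psmb5* by 0.56 (difference -0.56, interval -0.74 to -0.37), and that of *Psmb10* was lower than that of *Psmb7* by 0.51 (difference -0.51, interval -0.69 to -0.33). For *Psmb9* and *Psmb6* the difference was -0.11, with an interval from -0.33 to 0.10. These intervals are normal approximations on read pairs and, as before, compare 2 libraries.

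The class II genes other than *Cd74*, which lies on another chromosome, and 4 of the 6 peptide supply genes are neighbours. From *H2-Oa* to *H2-Eb2*, 34092340 to 34341412 on chromosome 17, 249 kb hold 13 members, with *Psmb9*, *Tap1*, *Psmb8* and *Tap2* between *H2-DMb1* and *H2-Ob*. The 7 tested class II genes within this stretch are among the 8 already counted as called lower, against 7.28% of all genes, so they are no separate result. Their log2 fold changes were -0.68 to -1.94, and the 4 peptide supply genes lay between -0.39 and -0.01.

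Of the 4 genes placed in neither class, *H2-K2*, annotated as a transcribed pseudogene, gave 433 normalized reads in control against 294 in iFIRKO (log2 fold change -0.55, interval -0.87 to -0.25). It is a class I relative, left out because the class I symbols were fixed to include *H2-K1* alone of the H2-K genes. *H2-Q5*, *H2-T10*, *H2-Bl* and *H2-Q3* are also annotated as pseudogenes but were counted as class I by symbol. *H2-Ke6*, a hydroxysteroid dehydrogenase gene that takes its symbol from its place in the MHC, had 39.8 and 42.7 normalized reads (log2 fold change 0.09, interval -0.87 to 1.05), and 70.5% of its 50-base stretches are shared with the overlapping *Gm20427*. The pseudogenes *H2-Pa* and *H2-Pb* were listed at 0 in both libraries.

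Other genes of the pathway were taken from a fixed list of 41 genes, of which 39 were tested. In iFIRKO 5 were called lower, against 7.28% of all genes, and none higher, and the median log2 fold change was -0.17. With so few calls, the count is not read as a difference of the list from other genes. The 5 are *Cd40* (52.1 and 21.0 normalized reads, log2 fold change -1.16) and *Cd86* (292 and 156, -0.88), which encode costimulatory molecules of antigen presenting cells, *Ctss* (3930.4 and 2322, -0.76), the protease that degrades the invariant chain, *March1* (207 and 124, -0.71), the ubiquitin ligase that removes class II from the surface, and *Mr1* (404 and 251, -0.68), which presents vitamin B metabolites.

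In the endosomal group *Ifi30*, a thiol reductase, had a log2 fold change of -0.55 and *Ctsl* one of -0.13. The chaperones *Calr* (-0.53) and *Pdia3* (-0.54) of the class I loading complex lay within the limits, as did the proteasome activator genes *Psme1* (-0.17) and *Psme2* (-0.12). Of the 7 class II transcription factor genes besides *Ciita*, among them *Rfx5* (-0.31) and *Rfxank* (0.37), none was called, and their median was 0.03. *Ifng* was listed at 0 in both libraries. Of 8 tested genes of interferon gamma signalling none was called, with a median of -0.32 and *Irf1* at 2252 and 1656 normalized reads (-0.44).

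Interferons raise class I genes and the immunoproteasome, and other interferon-stimulated genes were set beside the member families. Of 21 tested, 13 were called lower, against 7.28% of all genes, and none higher, with a median log2 fold change of -0.67. That median lay above that of the class II genes (-0.78) and below those of the class I genes (-0.49) and the peptide supply genes (-0.38). The part of interferon in the values of any family was not tested. The 5 largest were *Oasl2* (1034 and 484 normalized reads, -1.09), *Ifit2* (564 and 263, -1.09), *Mx1* (269 and 130.4, -1.02), *Cxcl10* (407 and 207, -0.96) and *Cxcl9* (1593 and 879.7, -0.85).

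Markers of cells that carry class II were lower as well, where 7.28% of all genes tested were called lower. Of 5 tested B cell markers of 7, 4 were called lower, with a median log2 fold change of -1.30; the summed level went from 527 to 215 normalized reads, a log2 ratio of -1.29 (interval -1.63 to -0.96). *Cd22* had 138 and 72.0 and *Cd79a* 113 and 17.1, while *Cd79b* was within the limits. Of 9 dendritic cell markers 3 were tested, *Zbtb46* (309 and 196), *Clec9a* (164 and 105) and *Itgax* (44.5 and 24.6), and each was called lower, although the interval of *Itgax* included 0 (-2.00 to 0.22). The sum of that list had a log2 ratio of -0.61 (interval -0.87 to -0.34), and *Cd209a* was listed at 0 in both libraries.

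Of 11 Kupffer cell and macrophage markers, 8 were called lower, against 7.28% of all genes, with a median of -0.62 and a range from -0.99 to -0.29. Their sum was 43078 normalized reads in control against 27795 in iFIRKO, a log2 ratio of -0.63 (interval -0.66 to -0.60), and the most abundant were *Cd5l* (9323 and 5401), *Clec4f* (8728 and 5677) and *Csf1r* (4938 and 3561). Of 4 monocyte markers 3 were called lower, with a summed log2 ratio of -1.07, among them *Ccr2* (236 and 74.2 normalized reads) and *Chil3*, whose interval included 0 (-1.44 to 0.10). The class II sum had a log2 ratio lower than that of the Kupffer cell and macrophage sum by 0.13 (difference -0.13, interval -0.20 to -0.06) and higher than that of the B cell sum (difference 0.53, interval 0.20 to 0.86). Its difference from the dendritic cell sum was -0.16, with an interval from -0.42 to 0.11. The part of these cell types in the class II values was not tested.

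Over the 6 leukocyte lists, which add T and NK cell and neutrophil markers, 21 of 26 tested genes were called lower and none higher. Among all genes tested, 7.28% were called lower and 4.46% higher. The median over the 6 lists was -0.68. Only *Cd4* of 8 T and NK cell markers was tested (104 and 48.3 normalized reads), and the neutrophil markers *S100a9* (228 and 64.7) and *S100a8* (117 and 32.2) were both called lower. Of 8 endothelial markers 3 were called lower, with a median of -0.47. The stellate list, at a median of 0.10 with no gene called among 6, and the hepatocyte list, at -0.06 with 1 called lower and 1 higher among 8, had medians close to 0, but the hepatocyte genes ranged from -0.94 (*Apoa1*) to 0.61 (*Apoc3*). All 6 erythroid genes were called higher, with a median of 0.98, and of the 4 adipocyte markers 2 were listed at 0 in both libraries and 2 had 1 read pair in iFIRKO alone. The part of these differences in the class I and peptide supply values was not tested.

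**Figure D4:**
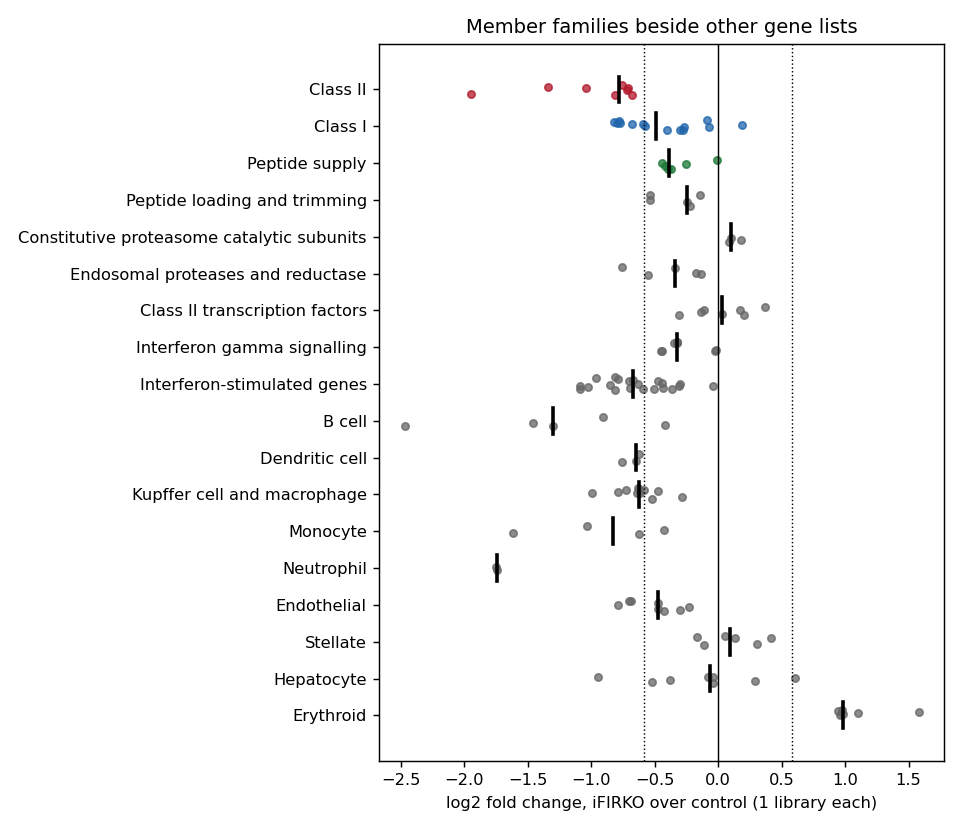
Log2 fold change of iFIRKO over control (1 library each) for each tested gene (points) in the member families and in a choice of the other lists, with the list's median as a black bar; dotted lines mark a fold of 1.5 in each direction. The class II median is -0.78 and that of the interferon-stimulated genes -0.67. Medians of the leukocyte lists shown run from -1.74 (neutrophil) to -0.62 (Kupffer cell and macrophage). Class I (median -0.49) ranges from -0.82 to 0.19, and the constitutive proteasome (0.10), stellate (0.10) and hepatocyte (-0.06) medians lie near 0.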

How the data were processed

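Liver mRNA libraries (TruSeq stranded mRNA, NovaSeq) of 1 control and 1 iFIRKO sample, grouped by the titles in the labels, were analysed. Each deposited file gives, by gene symbol, a read count that the authors normalized and put on the log2 scale, and a 0 marks values of 1 or less before the log. The submitters' processing notes name mm10; the aligner, counter, annotation and scaling method are not given in the sources used here. Read depth was estimated by taking the commonest low value as 1 read pair; 48.8% and 51.7% of values under 25 were then whole reads (within 0.01), so no count model was used and pairs are estimates. No fold is given for a gene at 3 pairs or fewer in either library. Intervals between 2 genes are normal approximations on pairs.

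Members and lists were chosen with earlier results of these data known, so their direction is no independent evidence. Every tested member is named; of other lists, the 5 largest changes and functional partners, and up to 3 markers by level. Other names were picked with their values in view. Some genes of these lists are not reported here by name. All 51 symbols were matched to GENCODE M21 (GRCm38), which gave positions, merged exon lengths and shared 50-base stretches; promoters came from RefSeq GRCm38.p6. Alternatives changed the pseudocount, minimum, scaling, fold and duplicate symbols. The calls and intervals were tested on simulated whole read pairs of genes with a mean of about 209 normalized reads or more. Such data cannot test them for genes with fewer reads or for values that are not whole reads. Intervals were computed with scipy 1.17.1 and figures with matplotlib 3.10.9, under Python 3.11.15 with pandas 2.3.3 and numpy 2.4.6.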

Additional observations from a re-analysis of the deposited data

How the results depend on the processing

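Under the 10 alternatives no single member changed sign: of 32 followed, 30 were below 0 and 2 above 0 in every setting that gave a value, and 310 of 312 values stayed within their counting interval. The 2 that did not were *H2-Ob* with 41.8 normalized reads added (-1.08) and *H2-Q10* with upper-quartile scaling (-0.09). The class II median lay between -0.80 and -0.72, the class I median between -0.51 and -0.35, and the peptide supply median between -0.40 and -0.37. With a fold above 2, 3 class II and 0 class I genes were lower, where 267 of all 13400 genes tested were lower. Under the other settings 6 to 9 class II and 5 to 7 class I genes were lower and none of either was higher. *H2-Q4* passed the limit when scaled to the total without the 20 most abundant genes or to the upper quartile. Those scalings moved the summed class I log2 ratio to -0.19 and -0.20. Over all genes, higher and lower calls numbered 371 and 576 with 41.8 normalized reads added, 1960 and 2620 when genes of any level were taken, 288 and 440 among genes at 209 normalized reads or more, a smaller set, and 209 and 267 with a fold above 2. The counts reported above were 597 and 976 of 13400 genes tested, and the 440 lower calls were among 10145 genes. No paired analysis was possible because only 1 control and 1 iFIRKO library were analysed. Few read pairs limit *H2-Ob*, *H2-DMb2*, *H2-Ke6* and *Ciita*.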

Other observations

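The H2 rows with -ps in their symbol belong to no comparison above. *H2-T-ps* gave 54.2 normalized reads in control against 52.0 in iFIRKO, or 27 and 26 read pairs (log2 fold change -0.05, interval -0.87 to 0.80). *H2-M6-ps* had 2.98 and 5.72. *H2-Ea-ps*, the α chain of I-E, which is known not to be transcribed in C57BL/6 mice, and *H2-M10.5-ps1* were listed at 0 in both libraries.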
